A study of Mus musculus with 4 samples.

Results

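Immediate early genes are the genes that cells transcribe first after a stimulus, and 10 of them were followed here through the livers of obese mice. The members were Fos, Jun, Junb, Egr1, Atf3, Ier2, Ier3, Dusp1, Klf6 and Myc, taken by gene symbol, and all 10 were found among the 24346 symbols listed for each liver. RNA sequencing covered 4 groups of male ob/ob mice, whose obesity comes from a lack of leptin, so that the controls carried the same deficiency. The groups were a regular chow diet (CD), the same chow with 0.01% 7-ketocholesterol (CD+7KC), a high fat diet based on cocoa butter (WD) and that diet with 0.01% 7-ketocholesterol (WD+7KC). WD held 20% cocoa butter where CD held 5% corn oil, and it also had more sucrose and less casein. Effects of fat, sucrose and casein therefore cannot be told apart between the diets. 7KC is a cholesterol molecule that has been oxidized. Cholesterol made up 1% of every diet, chow included, so no group was without added cholesterol. The mice started the diets at 6 weeks of age and ate them for 4 weeks. Each group had 1 library, and the number of mice behind it is not given in the sources used here. Every difference below is therefore a difference between 2 libraries, with no replicate check and no p-value.

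Immediate early genes are switched on by factors that already sit in the cell, such as the serum response factor and CREB, after growth factors, cytokines or stress act on MAP kinases. Many encode transcription factors that carry the signal on to later genes, and others encode inhibitors that shut it off. In the liver they are best known for their fast response to partial hepatectomy. Their mRNAs are made in bursts and decay quickly.

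The deposited values are FPKM, fragments per length of transcript scaled to the mapped fragments of the library, so transcript length and depth are allowed for. Comparisons between libraries still depend on the scaling, as the sums below show. Depth was inferred from how low FPKM values are spaced, because 1 read is worth a fixed FPKM for a transcript of known length. The estimates were 10938000 fragments for CD, 11000000 for CD+7KC, 9405000 for WD and 12108000 for WD+7KC. The liver label was matched by hepatocyte markers, with 10 of 10 above 0 in all 4 libraries and Alb at 30014 to 35981 FPKM. The summed FPKM of all genes was 602059 in WD+7KC against 696062 to 715605 in the other libraries. When the libraries were brought to equal sums (TPM), the median gene of WD+7KC moved from 0.00 to 0.21 on the log2 scale compared to WD, and from 0.00 to 0.20 compared to CD+7KC.

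Among the members, Jun, a subunit of the dimeric bZIP transcription factor AP-1, was the most abundant in every library. Jun stood at 27.4 and 27.3 FPKM in CD and CD+7KC, and 19.1 and 19.2 in WD and WD+7KC. Its values thus fell into a chow pair and a high fat pair. Junb, a second JUN subunit, had 19.4 and 16.1 FPKM in CD and CD+7KC, and 10.2 and 15.6 in WD and WD+7KC, with WD the lowest. Fos, the partner that JUN proteins bind in the classical dimer, had 6.77 and 7.71 FPKM in CD and CD+7KC, and 2.51 and 2.22 in WD and WD+7KC. Both high fat livers lay far below both chow livers for Fos. Atf3, a stress-responsive bZIP factor of the CREB family, had 4.97 and 6.28 FPKM in CD and CD+7KC, and 4.35 and 8.52 in WD and WD+7KC. Its highest value was in WD+7KC, unlike that of the other 3 bZIP members.

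The remaining transcription factors were 2 zinc finger proteins and Myc. Egr1, a zinc finger factor that serum response factor induces, had 10.2 and 8.32 FPKM in CD and CD+7KC, and 5.19 and 5.49 in WD and WD+7KC. The chow livers were both above the high fat livers, as for Fos, Jun and, by a small margin, Junb. Klf6, a Krüppel-like zinc finger factor, had 12.4 and 10.8 FPKM in CD and CD+7KC, and 7.33 and 12.97 in WD and WD+7KC. Myc, which pairs with Max on E-box sequences, had 3.97 and 3.26 FPKM in CD and CD+7KC, and 2.94 and 6.09 in WD and WD+7KC. In Klf6 and Myc the WD liver was the lowest and the WD+7KC liver the highest.

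The other 3 members are not DNA-binding factors of these families. Dusp1, the phosphatase that inactivates MAP kinases, had 24.7 and 23.8 FPKM in CD and CD+7KC, and 18.4 and 14.8 in WD and WD+7KC. It was the only member other than Fos whose lowest value was in WD+7KC. Ier2, a nuclear protein, varied least, with 12.3 and 10.8 FPKM in CD and CD+7KC, and 9.30 and 10.04 in WD and WD+7KC. Ier3, a regulator of cell survival, varied most, with 2.36 and 0.717 FPKM in CD and CD+7KC, and 0.956 and 2.97 in WD and WD+7KC. These Ier3 levels rest on an estimated 24.1, 7.34, 8.37 and 33.5 reads, by far the fewest of the 10 members. The highest level exceeded the lowest 4.15-fold for Ier3, 3.48-fold for Fos and 2.07-fold for Myc, and 1.33-fold to 1.96-fold for the other 7.

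**Figure D1:**
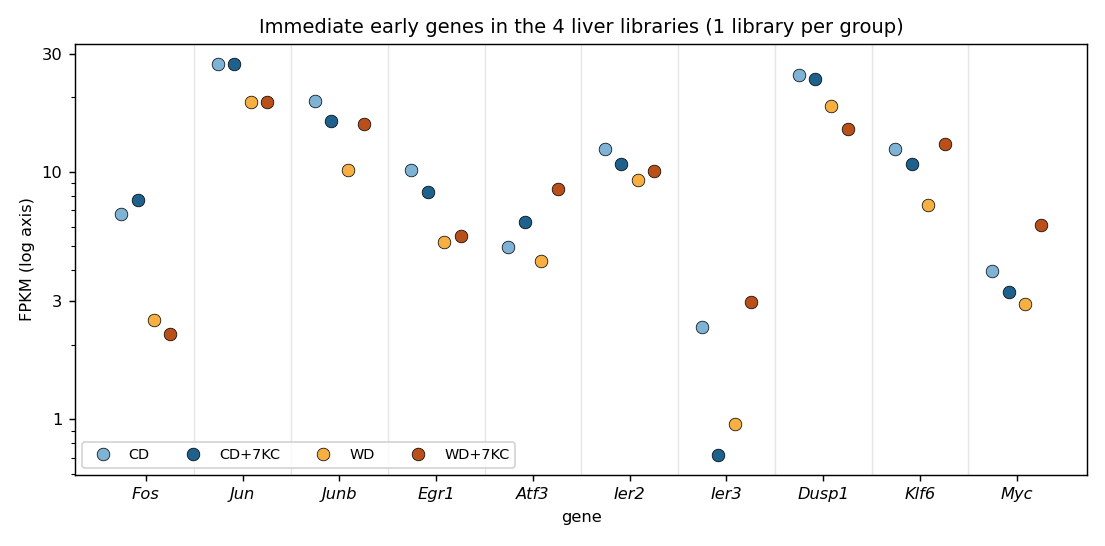
FPKM of each immediate early gene on a log axis, 1 point per library and 1 library per group, with no error bars because no group has a replicate. Fos, Jun, Egr1, Dusp1 and, by a small margin, Junb and Ier2 have both chow points above both high fat points. Atf3, Klf6, Ier3 and Myc reach their highest point in WD+7KC at 8.52, 12.97, 2.97 and 6.09 FPKM.

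The order of the levels was similar at the top and changed at the bottom. Jun and Dusp1 held the first and second places in CD, CD+7KC and WD, and in WD+7KC Junb at 15.6 FPKM stood above Dusp1 at 14.8. Fos held place 7 in both chow libraries, place 9 in WD and place 10 in WD+7KC. Ier3 was at place 10 in CD, CD+7KC and WD. Klf6 and Ier2, with 10.8 FPKM each in CD+7KC, could not be set in order there, and with 1 library per group no pair of neighbours has a spread to be judged by.

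Promoter sequences are printed for 5 members that went different ways when 7KC was added to WD. Fos and Dusp1 were not higher with 7KC under the deposited scaling, and Junb, Klf6 and Ier3 were. The promoter table used here, taken from RefSeq (GRCm38.p6), was matched by symbol to 7 of the 10 members, namely these 5, Jun and Atf3. Each sequence runs 5′ to 3′ on the gene's own strand, from 250 bases before the annotated start to 20 bases after it. Capitals mark matches to the motifs described after them. The windows are chr12:85473640-85473909 (+ strand) for Fos, chr17:26508453-26508722 (- strand) for Dusp1, chr8:84978729-84978998 (- strand) for Junb, chr13:5861239-5861508 (+ strand) for Klf6 and chr17:35821463-35821732 (+ strand) for Ier3.
Fos: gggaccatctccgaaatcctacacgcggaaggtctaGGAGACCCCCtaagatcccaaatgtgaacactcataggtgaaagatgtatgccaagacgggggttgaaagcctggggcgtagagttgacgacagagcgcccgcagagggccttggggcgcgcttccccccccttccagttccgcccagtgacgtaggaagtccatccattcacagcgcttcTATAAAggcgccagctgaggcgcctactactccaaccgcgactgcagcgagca
Dusp1: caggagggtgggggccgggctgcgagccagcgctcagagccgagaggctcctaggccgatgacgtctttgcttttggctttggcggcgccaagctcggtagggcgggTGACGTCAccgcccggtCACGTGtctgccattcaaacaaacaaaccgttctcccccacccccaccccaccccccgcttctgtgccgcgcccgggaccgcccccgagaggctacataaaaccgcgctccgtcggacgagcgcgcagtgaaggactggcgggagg
Junb: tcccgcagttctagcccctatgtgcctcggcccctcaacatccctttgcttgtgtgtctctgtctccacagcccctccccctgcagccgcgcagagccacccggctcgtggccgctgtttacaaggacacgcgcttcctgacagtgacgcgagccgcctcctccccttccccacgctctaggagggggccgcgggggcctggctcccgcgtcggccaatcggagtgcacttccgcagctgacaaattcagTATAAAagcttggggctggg
Klf6: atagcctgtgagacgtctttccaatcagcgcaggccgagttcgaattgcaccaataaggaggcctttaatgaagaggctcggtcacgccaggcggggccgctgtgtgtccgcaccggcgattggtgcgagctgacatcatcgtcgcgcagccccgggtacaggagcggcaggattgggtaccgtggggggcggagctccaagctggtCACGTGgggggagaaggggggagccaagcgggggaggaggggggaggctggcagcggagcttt
Ier3: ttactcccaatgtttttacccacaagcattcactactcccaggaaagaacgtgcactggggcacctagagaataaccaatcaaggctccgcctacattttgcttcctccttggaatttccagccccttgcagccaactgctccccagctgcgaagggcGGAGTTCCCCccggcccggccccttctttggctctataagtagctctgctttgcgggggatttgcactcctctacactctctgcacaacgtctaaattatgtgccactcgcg

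The search covered both strands of 300 bases, from 250 before to 50 after the start, in 32851 promoters. The cyclic AMP response element TGACGTCA was in the promoter of Dusp1, starting 143 bases before the start, and in 1.79% of all promoters. The E-box CACGTG was in those of Dusp1, 126 bases before the start, and Klf6, 43 bases before it, and in 7.15% of all. The letters TATAAA were in those of Fos, 33 bases before the start, and Junb, at the annotated start itself, and in 13.6% of all. A kappaB motif lay on the opposite strand of Fos, 214 bases before the start, and of Ier3, 92 bases before it, and was in 8.46% of all promoters. Neither the CArG box of serum response factor (1.63% of all promoters), nor the AP-1 letters TGANTCA (7.81%), nor the EGR letters GCGNGGGCG (5.55%) were in these windows of the 7 members. None of the matches in these promoters overlapped a match of another motif. The kappaB, TATAAA and E-box letters were each in 1 printed gene that was higher with 7KC on WD and 1 that was not. The GC content was 54.0% to 67.0% in the 7 windows, against a median of 52.7% over all promoters.

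By GENCODE vM21 (GRCm38), Fos lies at chr12:85473890-85477273, Jun at chr4:95049034-95052222, Atf3 at chr1:191170296-191218039, Klf6 at chr13:5861482-5870394 and Myc at chr15:61985391-61990374. Junb, at chr8:84974484-84978718, and Ier2, at chr8:84661331-84662852, share chromosome 8. Dusp1, at chr17:26505590-26562128, and Ier3, at chr17:35821684-35822923, share chromosome 17. The AU-rich pentamer ATTTA, known from unstable mRNAs, was counted in the last 500 bases of each mRNA. It occurred 5 times in Ier3, 4 times in Fos and 3 times in Jun, so that 3 of 10 members had at least 3 copies, against 10% of 17160 mRNAs. The longer form TTATTTATT was in Fos and Dusp1, and in 2.81% of all mRNAs. Ier3 and Fos, which had the most copies, were also the members whose levels varied most, but Jun, with 3 copies, varied only 1.43-fold. Klf6 and Ier2, with 0 copies, varied 1.77-fold and 1.33-fold. A link between copies and variation was not tested.

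The first question was how the high fat diet without 7KC compared to chow. All 10 immediate early genes were lower in WD than in CD, and 49% of all 15597 genes above 0 FPKM in either library were lower. Their median log2 fold change was -0.63 against 0.01 over all genes. Fos and Ier3 were more than 2-fold lower, 2 of 10 members, as were 4.38% of all genes and 2.5% of those with at least 1 FPKM in either library. No member was more than 2-fold higher, against 5.31% and 3.04%. With a threshold of 1.5-fold, 5 members were past it downwards, against 10.8% of all genes. Fold changes were computed from FPKM + 0.1.

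The members differed in how far they were lower. Fos had a log2 fold change of -1.39, or 2.63-fold lower, with a 95% counting interval of -1.95 to -0.94. The interval is exact (Clopper-Pearson), comes from the estimated reads of the 2 libraries and covers counting error only, not the difference between mice. Of the 10860 genes with at least 1 FPKM in either library, 1.19% were at least as far down as Fos. Ier3 had -1.22 with the widest interval, -2.73 to -0.16. Egr1 had -0.96 (interval -1.27 to -0.68) and Junb -0.92 (-1.21 to -0.65). Klf6 followed at -0.75 (-0.97 to -0.54) and Jun at -0.51 (-0.67 to -0.36). For Dusp1 and Ier2 the differences were -0.42 (-0.63 to -0.21) and -0.40 (-0.75 to -0.05). Myc at -0.42 (-0.99 to 0.14) and Atf3 at -0.19 (-0.65 to 0.26) had intervals that include 0. The interval lay below 0 in 8 of 10 members, against 25.1% of the 6462 genes with a single mRNA and at least 1 FPKM. It lay above 0 in no member, against 22.1%.

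Markers of other cell types did not all move with them. Macrophage and Kupffer cell markers summed to 241 FPKM in CD and 378 in WD, with 11 of 14 higher. Endothelial markers summed to 59.6 and 47.7 FPKM, with 6 of 8 lower. Hepatocyte markers summed to 57744 and 58032 FPKM, of which Alb alone had 35084 and 35981. Still, 7 of 10 hepatocyte markers were lower, with a median of -0.13 on the log2 scale. The part of these markers in the members' lower levels was not tested. In whole liver, fewer cells of a type and less RNA per cell cannot be told apart.

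The next question was what 7KC added to the high fat diet. Compared to WD, WD+7KC had higher levels of 8 of 10 immediate early genes, and 50.2% of all 15753 genes were higher. The median was 0.36, and 0.57 after scaling to equal sums, against 0.00 and 0.21 over all genes. The members split into a group of 5 that were at least 1.5-fold higher, against 14.2% of all genes, and 5 that were within 0.31 of no change. The 5 were Ier3, Myc, Atf3, Klf6 and Junb. Ier3 and Myc passed 2-fold, as did 6.21% of all genes and 3.74% of those with at least 1 FPKM. No member was more than 2-fold lower, against 2.79% and 0.968%. The WD library enters both this comparison and the one with CD, so its own values count in each.

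Ier3 was 2.91-fold higher than in WD, with a log2 fold change of 1.54 and a counting interval of 0.58 to 3.05. Myc was 2.04-fold higher (1.03, interval 0.55 to 1.58). Myc has several linked mRNAs, and its interval was computed with the shortest of them. Atf3 was 1.94-fold higher (0.95, interval 0.57 to 1.38), Klf6 1.76-fold (0.82, 0.61 to 1.03) and Junb 1.52-fold (0.60, 0.33 to 0.90). Of the 11059 genes with at least 1 FPKM in either library, 0.94% were at least as far up as Ier3, 3.47% as far as Myc, 4.24% as far as Atf3, 5.61% as far as Klf6 and 8.83% as far as Junb. The interval lay above 0 in 5 of 10 members, against 16.7% of 6578 genes. Scaled to equal sums, Atf3 (1.17) and Klf6 (1.03) passed 2-fold as well. With that scaling the genes more than 2-fold higher rose from 978 to 1629 of all 15753.

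Fos, Jun, Egr1, Ier2 and Dusp1 did not share this. Jun stood at 0.01 (interval -0.16 to 0.17), Egr1 at 0.08 (-0.24 to 0.42), Ier2 at 0.11 (-0.24 to 0.47) and Fos at -0.17 (-0.79 to 0.43). Under the deposited scaling these intervals, which cover counting error only, include 0. Dusp1 was lower at -0.31 (-0.54 to -0.08), and 22.9% of genes had an interval below 0. Scaled to equal sums, Fos turned from -0.17 to 0.03, the interval of Jun (0.22) moved above 0 and that of Dusp1 (-0.09) included 0. The median without Ier3, the member with the fewest reads, was 0.11.

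Markers of other cell types moved in the same comparison. Macrophage and Kupffer cell markers had higher values for 14 of 14 genes, 6 of them more than 2-fold, and their sum was 378 FPKM in WD and 694 in WD+7KC. Endothelial markers were more than 2-fold higher for 8 of 8, with a median of 1.52 on the log2 scale and sums of 47.7 and 136 FPKM. Neutrophil markers summed to 14.7 and 20.2 FPKM, with Mpo at 0 in all 4 libraries, and lymphocyte markers to 6.04 and 4.93 FPKM. Stellate cell markers summed to 189 and 187 FPKM, of which Dcn alone had 145 and 137, with 4 of 8 higher. Cholangiocyte markers summed to 126 and 186 FPKM, of which Spp1 alone had 124 and 183, with 5 of 6 higher. Erythroid markers summed to 374 and 174 FPKM, with 5 of 6 lower and a median of -0.66 on the log2 scale. Adipocyte markers summed to 306 and 314 FPKM, with Plin1 and Lep at 0 in all 4. Of the 2 adipocyte markers above 0 in this comparison, 1 was higher and 1 lower. Hepatocyte markers were lower for 9 of 10 under the deposited scaling, with sums of 58032 and 45443 FPKM, and their median moved from -0.27 to -0.06 when scaled to equal sums. The part of these markers in the members' higher levels was not tested.

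**Figure D2:**
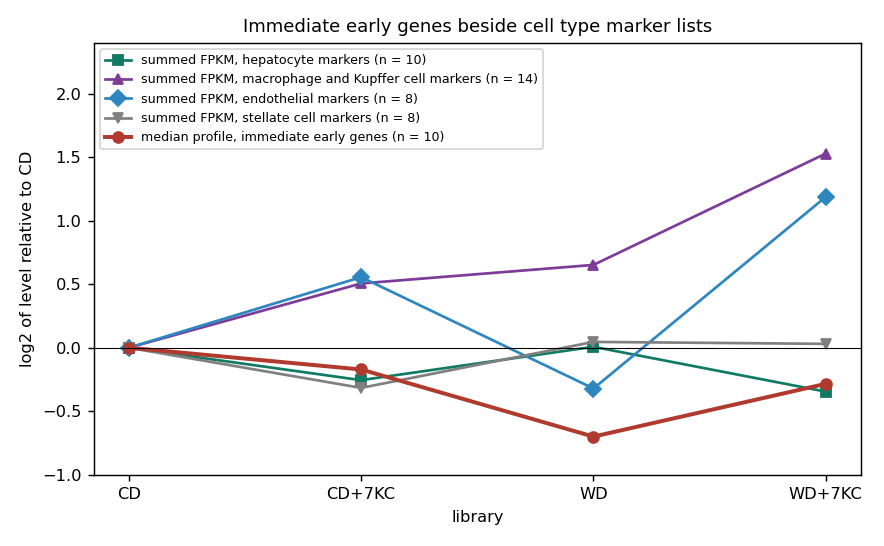
Log2 of the level relative to CD in each of the 4 libraries, for the summed FPKM of 4 marker lists and for the median profile of the 10 immediate early genes (1 library per group, lines only join the points of a list). Macrophage and endothelial sums reach 694 and 136 FPKM in WD+7KC. Under the deposited scaling, the immediate early profile is lowest in WD and does not reach its CD level in WD+7KC. All genes sum to 715605 FPKM in CD and 602059 in WD+7KC, so the size of this gap depends on the scaling.

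On chow, 7KC was accompanied by small differences. Compared to CD, 8 of 10 members were lower in CD+7KC, against 50.7% of all 15684 genes, with a median of -0.20 against 0.00. Ier3 was 3.02-fold lower, at -1.59 with an interval of -3.24 to -0.53, and only 0.48% of 10813 genes with at least 1 FPKM were as far down. It was the 1 member past 2-fold downwards, against 2.91% of all genes and 1.08% of those with at least 1 FPKM. No member was past 2-fold upwards, against 3.84% and 1.57%.

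The other 9 members stayed within 0.33 of no change. Egr1 at -0.28 (-0.53 to -0.04), Junb at -0.27 (-0.50 to -0.04) and Klf6 at -0.20 (-0.38 to -0.02) had intervals just below 0. With Ier3 that made 4 of 10, against 17.3% of 6415 genes, and scaled to equal sums the intervals of Junb and Klf6 included 0. Myc at -0.28 (-0.81 to 0.24), Ier2 at -0.19 (-0.51 to 0.13), Dusp1 at -0.05 (-0.24 to 0.14) and Jun at -0.003 (-0.14 to 0.13) had intervals that include 0. Jun turned to 0.04 when scaled to equal sums. Fos at 0.18 (-0.14 to 0.53) and Atf3 at 0.33 (-0.06 to 0.73) were the 2 members with higher values, also with intervals that include 0. No member had an interval above 0, against 14.2% of genes. Macrophage and Kupffer cell markers summed to 241 FPKM in CD and 342 in CD+7KC, and endothelial markers to 59.6 and 87.5 FPKM, in the opposite direction to most members. Other lists moved in the same direction as most members, with 9 of 10 hepatocyte, 7 of 8 stellate cell, 6 of 6 cholangiocyte and 5 of 5 erythroid markers lower. Stellate cell markers summed to 183 and 147 FPKM, of which Dcn alone had 139 and 118. Cholangiocyte markers summed to 103 and 46.9 FPKM, of which Spp1 alone had 98.7 and 43.7. The part of these markers in the result was not tested.

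**Figure D3:**
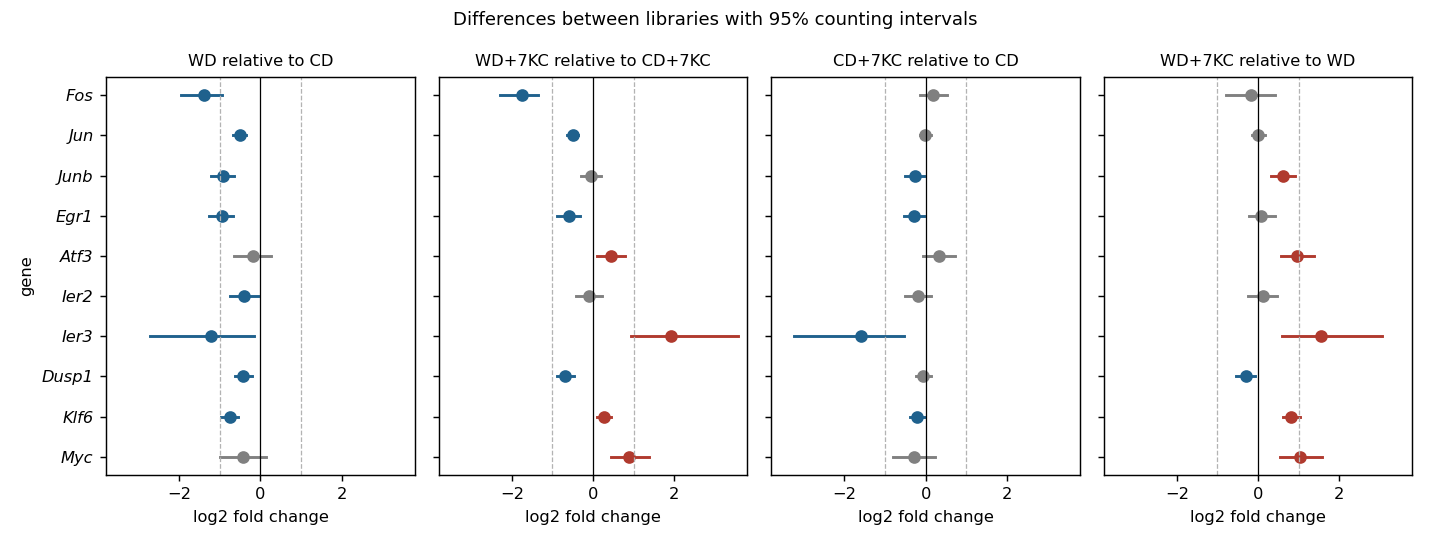
Log2 fold change of each immediate early gene in 4 comparisons, with its 95% counting interval from estimated reads (red above 0, blue below 0, grey including 0, dashed lines at 2-fold). All 10 points lie below 0 in WD compared to CD, from -1.39 for Fos to -0.19 for Atf3, and 5 intervals lie above 0 in WD+7KC compared to WD.

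The 2 diets were also compared with 7KC present in both. WD+7KC had 6 members lower and 4 higher than CD+7KC, against 49.8% of 15898 genes lower, and the median of -0.08 turned to 0.13 when scaled to equal sums. The members spread widely in both directions. Fos was 3.37-fold lower (-1.75, interval -2.29 to -1.34), farther down than all but 0.979% of 11137 genes, and Ier3 was 3.76-fold higher (1.91, interval 0.95 to 3.56). Under the deposited scaling those were the only members past 2-fold, 1 in each direction, against 4.61% of all genes lower and 8.01% higher, or 3.15% and 6.21% of those with at least 1 FPKM.

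Below Fos came Dusp1 at -0.68 (-0.89 to -0.48), Egr1 at -0.59 (-0.88 to -0.32) and Jun at -0.50 (-0.65 to -0.36). Above 0 lay Myc at 0.88 (0.45 to 1.39), which passed 2-fold (1.10) when scaled to equal sums, Atf3 at 0.43 (0.11 to 0.78) and Klf6 at 0.26 (0.09 to 0.44). Counting Fos and Ier3, 4 intervals lay below 0 and 4 above it, against 27.2% and 25.3% of 6618 genes. Junb at -0.05 (-0.29 to 0.19) and Ier2 at -0.10 (-0.43 to 0.22) had intervals that include 0, and both turned positive, to 0.16 and 0.10, when scaled to equal sums. Fos, Jun, Egr1 and Dusp1 were thus lower on the high fat diet both without and with 7KC, in 2 comparisons that share no library. Macrophage and Kupffer cell markers summed to 342 FPKM in CD+7KC and 694 in WD+7KC, with 13 of 14 higher. Endothelial markers (87.5 and 136 FPKM) and stellate cell markers (147 and 187 FPKM) were higher for 8 of 8 each. Cholangiocyte markers summed to 46.9 and 186 FPKM, of which Spp1 alone had 43.7 and 183, with 3 of 6 higher. The part of all these markers in the result was not tested.

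**Figure D4:**
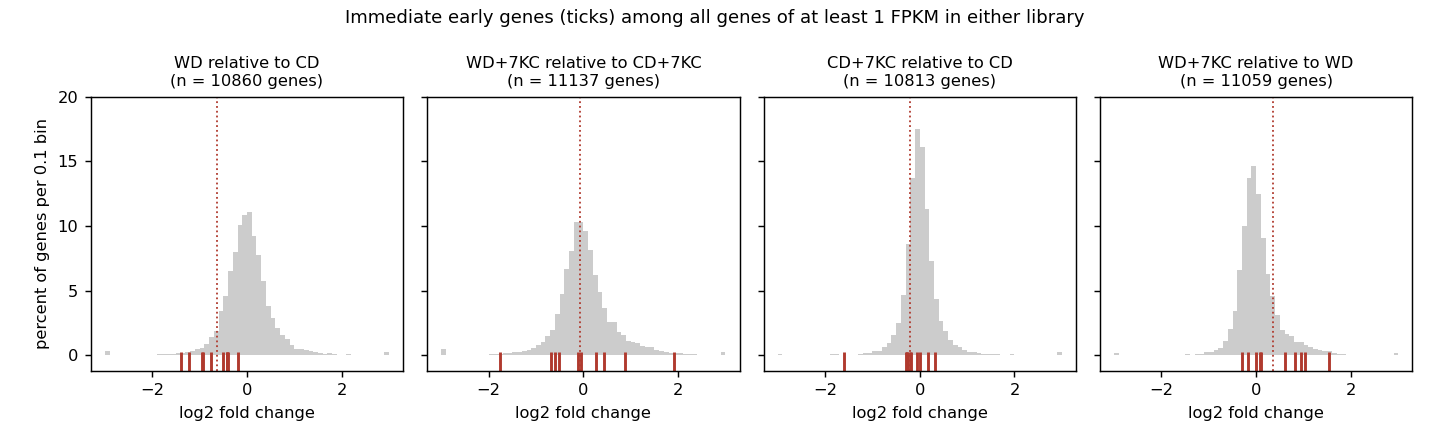
Distribution of the log2 fold change over all genes with at least 1 FPKM in either library, in percent of genes per bin of 0.1 (values beyond 3 in either direction are set in the end bins), with the 10 immediate early genes as red ticks and their median as a dotted line. The median of the members is -0.63 in WD compared to CD and 0.36 in WD+7KC compared to WD, and -0.08 and -0.20 in the other comparisons.

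The 7KC differences under the 2 diets come from separate pairs of libraries and can be set side by side. Ier3 differed most between them, by 3.13 on the log2 scale (1.54 on WD against -1.59 on chow). Myc followed with 1.31 (1.03 against -0.28), Klf6 with 1.01 (0.82 against -0.20), Junb with 0.87 (0.60 against -0.27) and Atf3 with 0.62 (0.95 against 0.33). For Ier3, Klf6 and Junb the counting intervals lay on opposite sides of 0 under the 2 diets. Egr1 differed by 0.36, Ier2 by 0.30 and Jun by 0.01, and Fos by -0.36 and Dusp1 by -0.26. With 1 library per group the difference between diets was not tested.

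**Figure D5:**
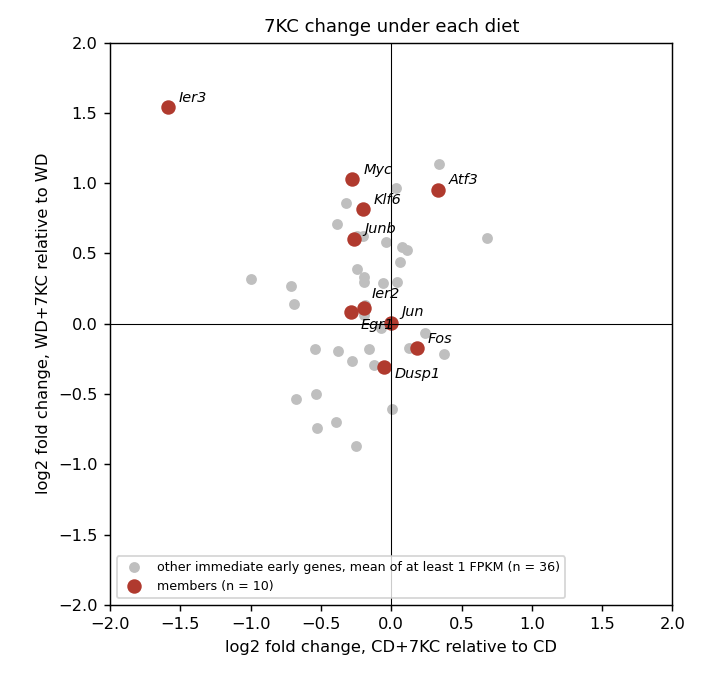
Log2 fold change with 7KC on chow (horizontal axis, CD+7KC compared to CD) against that on the high fat diet (vertical axis, WD+7KC compared to WD), with 1 red point per immediate early gene and grey points for 36 other immediate early genes averaging 1 FPKM or more. Ier3 lies at the upper left, at -1.59 and 1.54, and Jun lies at the crossing of the axes.

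Other genes of the same class were followed as a list of 47. In WD compared to CD 36 were lower and 11 higher, with a median of -0.29. More than 2-fold lower were 6, and 0 were more than 2-fold higher, against 4.38% and 5.31% of all genes. Those 6, named after their values were seen, were Fosb, Nr4a3, Btg2, Klf4, Hbegf and Fosl1, the last listed at 0 in WD. Fosb, the closest relative of Fos, had 0.99 and 0.86 FPKM in CD and CD+7KC, and 0.21 and 0.28 in WD and WD+7KC, the same split into chow and high fat livers as Fos. Jund, the third JUN protein, had 43.4 and 38.1 FPKM in CD and CD+7KC, and 31.9 and 34.9 in WD and WD+7KC, a narrower range. Fosl2 had 2.10, 1.58, 1.49 and 2.51 FPKM in the same order, highest in WD+7KC as Atf3, Klf6 and Myc were.

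In WD+7KC compared to WD 30 of 46 were higher, with a median of 0.30. Of these, 4 were more than 2-fold higher, against 6.21% of all genes. Among those averaging 1 FPKM or more, Klf2, a relative of Klf6 known from endothelial cells, had the largest positive difference, from 2.75 to 6.16 FPKM (1.14). The other 3, Ier5l, Hbegf and Nr4a3, had a mean below 1 FPKM and were named after their values were seen. The orphan nuclear receptor Nr4a1 had 1.44 and 1.47 FPKM in CD and CD+7KC, and 0.93 and 1.91 in WD and WD+7KC. Cebpd, a C/EBP factor, had the largest negative difference, from 5.70 to 3.07 FPKM (-0.87). On chow 35 of 47 were lower with 7KC, with a median of -0.20. Among those averaging 1 FPKM or more, the differences ran from Plk2 at 3.98 and 6.44 FPKM (0.68) to Cyr61, a matricellular protein, at 14.8 and 7.39 FPKM (-0.995). Of the genes with a lower mean, named after their values were seen, Egr3, listed at 0 in CD, was past the threshold upwards, and Nr4a3, Hbegf and Fosl1, the last listed at 0 in CD+7KC, were past it downwards. That made 1 upwards and 3 downwards, against 3.84% and 2.91% of all genes.

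Genes upstream of the members moved little as a list. The 25 kinases and serum response or CREB factors had medians of -0.05 with 7KC on chow, -0.03 with 7KC on WD and -0.19 in WD compared to CD. Elk3, an ETS partner of serum response factor, was the 1 gene more than 2-fold higher with 7KC on WD, from 1.86 to 4.62 FPKM (1.27). Egfr, the receptor of epidermal growth factor, was the 1 gene more than 2-fold lower with 7KC on chow, at 19.5 FPKM in CD and 5.76 in CD+7KC (-1.74). Of all genes, 6.21% were more than 2-fold higher with 7KC on WD and 2.91% more than 2-fold lower with 7KC on chow. The 14 bZIP partners of AP-1 had medians of -0.10, -0.01 and -0.07 in the same order, and Jdp2, which dimerizes with JUN, had the largest positive difference under both diets among those averaging 1 FPKM or more, 0.49 on chow and 0.85 on WD.

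Other inhibitors of MAP kinase signals were mostly higher with 7KC on WD, where Dusp1 was lower. Of the 15 other dual-specificity phosphatases, Sprouty and Spred genes, 14 had higher values in WD+7KC than in WD and the median was 0.62. Of these, 1 was more than 2-fold higher, against 6.21% of all genes. It was Dusp5 (named after its values were seen), from 0.44 to 1.12 FPKM, or an estimated 9.51 and 30.9 reads. Dusp7 had the largest positive difference among those averaging 1 FPKM or more, from 1.02 to 1.88 FPKM (0.83), and Spry1, from 3.61 to 2.77 FPKM (-0.37), was the 1 that was lower. In WD compared to CD 9 of 15 were lower, with a median of -0.48. Dusp5 and Dusp8, also named after their values were seen, were more than 2-fold lower, against 4.38% of all genes. With 7KC on chow 10 of 15 were lower, with a median of -0.19, and Dusp14 was higher, from 0.81 to 2.12 FPKM (1.29).

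Genes downstream gave no uniform picture. Of 10 measured genes linked to AP-1 and EGR1, 9 were higher when 7KC was added to WD and the median was 0.84, led by the collagenase Mmp13 from 0.73 to 2.96 FPKM (1.89). Tissue factor, F3, was the 1 that was lower, from 3.35 to 1.77 FPKM (-0.88). Several genes of this list are also made by macrophages, whose markers were higher in the same comparison. On chow with 7KC 7 of 10 were lower, with a median of -0.28. Timp1, an inhibitor of metalloproteinases, was the 1 more than 2-fold lower, from 4.14 to 1.46 FPKM (-1.44). Mmp9, named after its values were seen, was the 1 more than 2-fold higher, from 0.09 to 0.33 FPKM. More than 2-fold lower on chow with 7KC were 2.91% of all genes, and 3.84% were more than 2-fold higher. In WD compared to CD, where all members were lower, 7 of 10 were higher, with a median of 0.28. In WD+7KC compared to CD+7KC 8 of 10 were higher, with a median of 1.45. There 7 were more than 2-fold higher, against 8.01% of all genes. Il6 was listed at 0 in all 4 libraries. By qRT-PCR the study did measure its mRNA in ob/ob livers, with a higher level in WD+7KC than in WD. In contrast to Myc itself, 20 MYC targets had a median of -0.01 in WD+7KC compared to WD, with 10 higher and 10 lower, and of -0.23 with 7KC on chow, with 17 lower.

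The 10 genes of the MYC network had medians of -0.06 with 7KC on chow, 0.04 with 7KC on WD and 0.20 in WD compared to CD. The EGR co-repressors Nab1 and Nab2 had log2 fold changes of -0.14 and -0.25 on chow, and of -0.07 and 0.11 on WD. The 14 KLF genes measured, which share Klf2, Klf4 and Klf10 with the list of immediate early genes, had medians of 0.01, 0.13 and -0.34, and Klf1, a factor of red cell precursors, had the largest negative difference on WD, from 1.19 to 0.25 FPKM (-1.90). Heat shock genes (6) had medians of 0.16, 0.48 and -0.20 in the same order, and circadian genes (14) of 0.02, -0.19 and -0.06. Scaled to equal sums, the medians with 7KC on WD became 0.03 for circadian genes, 0.18 for the upstream genes, 0.20 for the bZIP partners and 0.21 for the MYC targets, beside 0.21 over all genes.

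The genes whose pattern was nearest to that of the members were sought among 10676 genes averaging 1 FPKM or more. Likeness was the Euclidean distance between centred log2 values over 4 libraries, so that many genes can be close with no more than 4 points. Nearest to the median of the members were Pus3 (distance 0.04), Rfx5 (0.05), Nabp1 (0.07), Cep83 (0.08) and Zfp36l2 (0.08). Zfp36l2, an RNA-binding protein that destabilizes AU-rich mRNAs, is itself in the list of other immediate early genes, at 20.5 and 17.9 FPKM in CD and CD+7KC, and 13.3 and 16.8 in WD and WD+7KC. Junb (0.17) was the member nearest to the median, and Ier3 (1.49) and Fos (1.27) the farthest from it. Nearest to Fos was Gnmt (0.05), the glycine N-methyltransferase of hepatocytes, at 1382 and 1534 FPKM in CD and CD+7KC, and 523 and 446 in WD and WD+7KC. The next were Marcksl1-ps4 (0.08) and Mug-ps1 (0.18), whose names mark pseudogenes, so that their reads may belong to near-identical copies.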

How the data were processed

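Liver RNA of ob/ob mice was sequenced as stranded mRNA libraries in single-end reads of 75 bases. According to the submitters' processing notes and the study's methods, the authors mapped the reads to mm10 with TopHat 2.0.13, Bowtie2 2.2.3 and SAMtools 0.1.19 and computed the deposited FPKM values with Cufflinks 2.2.1, 1 per gene symbol and library. The gene annotation, the Cufflinks options (use of strand included) and the number of mice per library are not given in the sources used here.

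Samples were grouped by their titles. The log2 fold change of FPKM + 0.1 was computed for genes above 0 FPKM in either library and called past 1 or -1. With 1 library per group no test across genes was run. Read numbers were estimated from the steps of low FPKM values over 13861 genes with a single linked mRNA, using the transcript length minus 200 bases (71.0% to 72.2% of low values lay within 0.1 of a whole read). Exact 95% intervals from these reads were added once the values were known, cover counting error only and hold for the deposited scaling. At 9405000 to 12108000 estimated fragments, precision is set by the reads of each gene. Myc was given its longest mRNA for read numbers and its shortest for the interval.

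The members and gene lists were chosen with earlier results of these data known. Every member is named. From the other lists, the genes with the largest positive and negative difference with 7KC among those with a mean of at least 1 FPKM are named, with Fosb, Fosl2, Jund and Nr4a1, and the nearest patterns. The alternatives were pseudocounts of 1 and 0.01 or none, a filter of 1 FPKM, 4 other scalings, and thresholds of 1.5-fold and 4-fold. Code was tested on simulated data. Values came from Python 3.11.15, numpy 2.4.6, pandas 2.3.3, scipy 1.17.1 and matplotlib 3.10.9. Promoter and mRNA sequences came from RefSeq GRCm38.p6 and GENCODE vM21. The study's qRT-PCR, histology and serum data were not analysed here. One gene of a target list is not reported here and is left out of the counts of that list.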

Additional observations from a re-analysis of the deposited data

Results flagged for a closer look

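The 7KC difference of 3 members had opposite signs under the 2 diets, with the counting intervals on opposite sides of 0. On the log2 scale, the difference on WD minus that on chow was 3.13 for Ier3, 1.01 for Klf6 and 0.87 for Junb. With 1 library per group these differences between the diets were not tested. Scaled to equal sums, the chow intervals of Klf6 and Junb included 0. The Ier3 values rest on 7.34 to 33.5 estimated reads per library.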

How the results depend on the processing

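The direction of the members' median held under every alternative in CD+7KC compared to CD, WD+7KC compared to WD and WD compared to CD. In WD+7KC compared to CD+7KC it turned from -0.08 to 0.13 when scaled to equal sums. The median there was also positive without the 20 most abundant genes. The number of members past 2-fold changed in these cases. In CD+7KC compared to CD it was 1, and 0 with a pseudocount of 1 or a 4-fold threshold. In WD+7KC compared to WD it was 2, and 1 with a pseudocount of 1, 4 when scaled to equal sums, 3 with upper-quartile scaling or without the 20 most abundant genes, 5 at 1.5-fold and 0 at 4-fold. In WD compared to CD it was 2, and 1 with a pseudocount of 1, 5 at 1.5-fold and 0 at 4-fold. In WD+7KC compared to CD+7KC it was 2, and 3 when scaled to equal sums or without the 20 most abundant genes, 5 at 1.5-fold and 0 at 4-fold. Over all genes, the number past 2-fold in WD+7KC compared to WD was 1418, and 189 with a pseudocount of 1, 2830 with 0.01 and 521 with the filter of 1 FPKM. In the other comparisons it was 1059, 113, 2380 and 287 for CD+7KC against CD, 1511, 287, 2929 and 602 for WD against CD, and 2007, 541, 3582 and 1043 for WD+7KC against CD+7KC. There, 1274 higher and 733 lower genes became 2007 and 719 when scaled to equal sums, and 1714 and 593 without the 20 most abundant genes. In WD+7KC compared to WD, 978 higher and 440 lower genes became 1629 and 453 when scaled to equal sums. They became 1050 and 410 with upper-quartile scaling, and 1294 and 361 without the 20 most abundant genes. A difference between members with few reads, above all Ier3, is limited by depth. No paired analysis was possible because each group has 1 library.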
